A study of Homo sapiens with 34 samples.

Results

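The expression of 10 genes that mark tissue macrophages was followed through the cytokine-free haematopoietic differentiation of H1, an established line of human embryonic stem cells. The genes were taken by name from the 20255 genes of the expression table: C1QA, C1QB and C1QC, which encode the chains of complement C1q, and CD163, MRC1, CD14, CD68, MARCO, MSR1 and CD36, which encode surface or lysosomal receptors. RNA was sequenced from 34 samples of 12 populations. These were 1 sample of undifferentiated H1 cells without treatment, and 3 biological replicates each of unsorted cells on day 0, which received BMP4 and hVEGF, of unsorted cells on days 2 and 4, and of cells sorted on days 6, 9, 12 and 16. The sorted cells were CD43- or CD43+ on days 6, 9 and 12. On day 16 they were CD43-CD45- or CD43+/CD45+, and are called day 16 CD43- and CD43+ cells below. In every comparison of day 16 with day 12, the day and the added CD45 gate cannot be told apart. Cells of day 2 and later received hVEGF. By the study's methods, BMP4 and VEGF were given from attachment on day 0 until the medium change on day 2. The cells of day 2 and later therefore came from cultures that had received BMP4. All samples came from 1 cell line, and each sorted population held a mixture of cell types.

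C1q is the recognition subunit of the classical complement pathway, and binds antibody complexes and dying cells. Unlike most complement proteins, which the liver makes, C1q is made mainly by macrophages and dendritic cells. Scavenger receptors are surface proteins that bind modified lipoproteins, microbial surfaces and cell debris, and tissue macrophages carry several of them at once. CD43 is a sialoglycoprotein of blood cells, encoded by SPN, and CD45 is the phosphatase encoded by PTPRC that most mature blood cells carry.

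Levels are given as normalised tag counts, the GC-normalised values deposited by the authors, which sum to 17856940 in every sample and reach 90700 at most. Every sample held the same set of values in another order, so depth is unknown and the highest levels are compressed. COL1A1 and COL3A1 both stood at 90700 in every day 12 and day 16 CD43- sample, so a value is no rank among all genes. Whether values of different genes lie on 1 scale after the GC step is not known. Sums over lists, ratios of genes and orders of genes are descriptions only. Differences were tested with limma on log2(value + 1) in 1 fit of 33 samples, and a gene was called at an adjusted p-value below 0.05 with a fold change above 4. Log2 fold changes are given with their standard errors (SE), and those of low genes are understated on this scale. SPN was higher in CD43+ than in CD43- cells on every day, by 4.14 to 8.63 on the log2 scale. In such bulk samples fewer cells of a type and less RNA per cell cannot be told apart.

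Some sorted libraries stood apart from their replicates. In the day 12 CD43- cells, the summed value of the 10 genes was 392 in replicate 1 but 5504 in replicate 2 and 7009 in replicate 3. PTPRC followed the same order, with values of 4, 197 and 371, whereas SPN stood at 122, 120 and 235. In the day 12 CD43+ cells, replicate 1 was highest, with a summed value of 93221 against 33310 and 24631. The day 12 replicates are therefore given singly, and the day 12 tests are given with and without these libraries.

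The 10 genes were near the bottom of the scale until day 4, split into early and late genes between days 6 and 9, and were all far higher in CD43+ than in CD43- cells on days 12 and 16. CD36 was the first to be higher in CD43+ cells, on day 6. The C1q genes and CD68 followed on day 9. CD163, CD14, MARCO and MSR1 were first called higher in CD43+ cells on day 12, as was MRC1, which had been lower in CD43+ than in CD43- cells on day 9.

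In CD43+ against CD43- cells, 1 of the 10 genes was higher on day 6, when 4.69% of 19788 genes tested were called higher, and 1 was lower, beside 7.85% of all genes. On day 9, 5 genes were higher and 1 was lower, beside 8.65% and 12.8% of all genes. On day 12 all 10 were higher (11.8% of all genes), with a median log2 fold change of 3.80 against 0.22 over all genes. On day 16 all 10 were again higher (12.2% of all genes), and the median was 8.08 against 0.14. Within CD43+ cells, 4 genes rose from day 6 to day 9 (3.56% of all genes), all 10 rose from day 9 to day 12 (8.45%) and 1 rose from day 12 to day 16 (3.79%). Within CD43- cells, limma called 0 of the 10 from day 6 to day 9 in either direction (1.75% of all genes), and 1 had an unadjusted p under 0.05. Markers of other blood cells were also higher in CD43+ cells on day 12 than on day 9. The summed value of 10 neutrophil markers went from between 22075 and 30265 to between 146451 and 165992, with at most 2 of them listed at 0 in a sample, and that of 8 eosinophil and mast cell markers from between 2410 and 5632 to between 30658 and 62689. The part of a changed mixture of cells in the rise was not tested. From day 9 to day 12, 7 of the 10 genes were called higher in CD43- cells (4.52% of all genes), and from day 12 to day 16, 6 were called lower (5.97%).

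**Figure D1:**
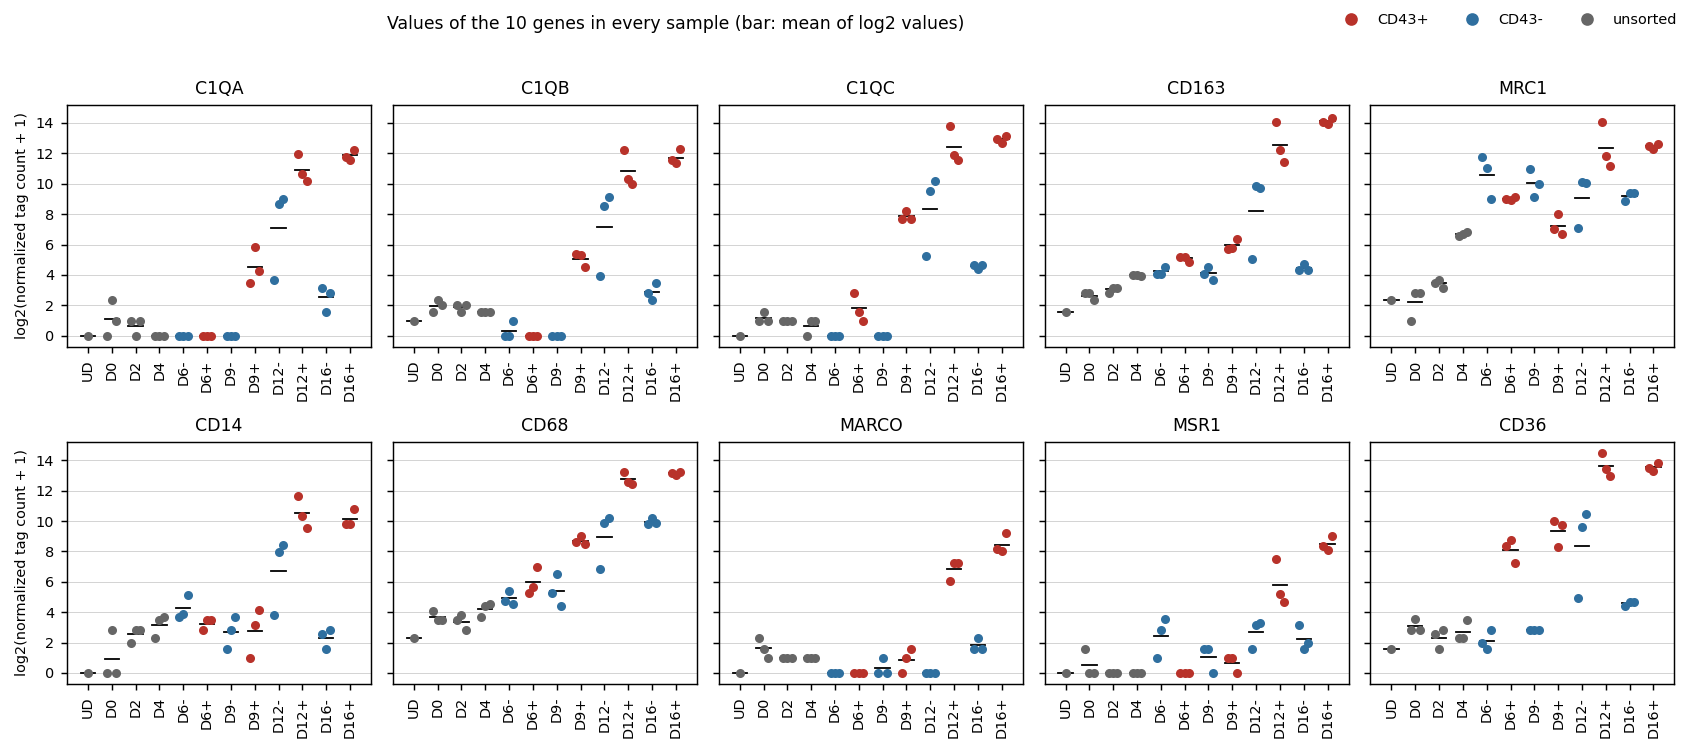
Normalised tag counts of the 10 genes in each of the 34 samples, as log2(value + 1), by population (UD, undifferentiated; D, day; minus and plus, CD43- and CD43+ cells). Points are samples and bars are means of the log2 values. In all 10 panels the day 12 and day 16 CD43+ samples lie above the CD43- samples of the same day.

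The early, unsorted cells gave little signal for these genes. In the undifferentiated sample the values ranged from 0 to 4 and on days 0 and 2 from 0 to 16. limma called 0 of the 10 from day 0 to day 2, and 0 had an unadjusted p under 0.05, beside 7.88% of all genes called in either direction. From day 2 to day 4 only MRC1 was called among the 10 (4.97% of all genes were called higher), with values of 10, 12 and 8 on day 2 and 95, 102 and 113 on day 4.

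C1QA, C1QC and C1QB encode the 3 chains that are assembled into C1q. They lie side by side on the plus strand of chromosome 1 (GRCh38), C1QA at chr1:22636506-22639608, C1QC at chr1:22643630-22648110 and C1QB at chr1:22652762-22661538, within 25033 bases. RefSeq gave a start site for 7 of the 10 genes, C1QC, MRC1 and MSR1 not being among them. The 250 bases before the start of C1QA (chr1:22636213-22636462) and of C1QB (chr1:22652986-22653235), both plus strand and from the RefSeq table for GRCh38.p14, are shown because these neighbours had the most similar levels of all pairs of the 10 genes. Matches to motifs of myeloid transcription factors are in capitals. The letters searched on both strands were GAGGAA for the PU.1 core, TTGCNNAA for C/EBP, TGANTCA for AP-1 and TGTGGT for RUNX.
C1QA: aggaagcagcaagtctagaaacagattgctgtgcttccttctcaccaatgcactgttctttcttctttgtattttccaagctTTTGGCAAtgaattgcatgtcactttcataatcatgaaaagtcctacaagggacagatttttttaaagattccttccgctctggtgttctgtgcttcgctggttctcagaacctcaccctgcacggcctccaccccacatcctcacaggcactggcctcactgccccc
C1QB: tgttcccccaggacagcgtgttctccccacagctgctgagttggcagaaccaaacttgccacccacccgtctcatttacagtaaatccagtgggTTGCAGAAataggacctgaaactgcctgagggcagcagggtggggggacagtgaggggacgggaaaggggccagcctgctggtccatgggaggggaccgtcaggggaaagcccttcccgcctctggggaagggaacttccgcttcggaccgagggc
The RefSeq start of C1QA lay 43 bases before the gene as positioned in the table, and that of C1QB 474 bases inside it. Each window held 1 C/EBP match, 168 to 161 bases before the start of C1QA on the minus strand and 156 to 149 bases before the start of C1QB on the plus strand, and none of the other motifs. Of 35116 RefSeq windows of this length, 9.05% held the C/EBP letters, 23.6% the PU.1 core, 6.57% the AP-1 letters and 11% the RUNX letters. A match is a description of the sequence and not of a bound site.

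The C1q genes were first clearly detected in day 9 CD43+ cells and rose by a further step on day 12. C1QA stood at 10, 56 and 18 in day 9 CD43+ cells, C1QB at 40, 38 and 22 and C1QC at 204, 295 and 208, whereas all 3 genes were listed at 0 in every day 9 CD43- sample. The populations did not overlap for any of them. No fold is given against groups listed at 0, and the adjusted p-values of the day 9 difference were 4.49e-05, 2.16e-06 and 5.65e-10. With 10 added in place of 1, the day 9 difference of C1QA and its rise from day 6 in CD43+ cells were under the 4-fold limit (adjusted p = 0.0221 and 0.0453). On day 6 C1QA and C1QB stood at 0 or 1 in all sorted samples, and C1QC at 6, 2 and 1 in CD43+ cells against 0 in CD43- cells. The fitted difference of C1QC on day 6 was 1.80 (SE 0.74, adjusted p = 0.0439), which was under the 4-fold limit.

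From day 9 to day 12 the C1q genes rose in CD43+ cells. C1QA reached 3984, 1600 and 1178, C1QB 4722, 1300 and 994, and C1QC 14009, 3720 and 2981. Replicate 1 was the highest for all 3 genes, and every day 12 value was above every day 9 value. The log2 fold changes were 6.42 (SE 0.85) for C1QA, 5.78 (SE 0.77) for C1QB and 4.53 (SE 0.74) for C1QC, with adjusted p-values of 4.73e-07, 4.73e-07 and 9.27e-06. On day 16 the CD43+ values were 3540, 3034 and 4844 for C1QA, 2960, 2640 and 4904 for C1QB and 7907, 6584 and 8970 for C1QC. These overlapped the day 12 values. The day 16 change was not called for any chain, with 95% intervals of -0.82 to 2.68, -0.70 to 2.46 and -0.98 to 2.04 on the log2 scale.

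In CD43- cells the C1q genes were higher on day 12 than on day 9 and lower on day 16, when the sort also used CD45. C1QA stood at 12, 410 and 502 on day 12 and at 8, 2 and 6 on day 16. C1QB stood at 14, 364 and 560, then at 6, 4 and 10, and C1QC at 37, 742 and 1140, then at 24, 20 and 24. Replicates 2 and 3 of day 12 carried the rise, while replicate 1 was close to the day 16 samples. From day 12 to day 16 the log2 fold changes were -4.60 (SE 0.85), -4.32 (SE 0.77) and -3.75 (SE 0.74). With replicate 1 alone on day 12 they were -1.18, -1.04 and -0.69, and not called. The difference between CD43+ and CD43- cells was 3.82 for C1QA, 3.65 for C1QB and 4.08 for C1QC on day 12 and 9.35, 8.86 and 8.36 on day 16. With replicate 1 alone as the day 12 CD43- sample, the day 12 differences became 7.24, 6.93 and 7.14.

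The ratio of the chains within a sample was compared between days in CD43+ cells. The log2 ratio of C1QC over C1QA was 4.22, 2.38 and 3.46 on day 9, 1.81, 1.22 and 1.34 on day 12, and 1.16, 1.12 and 0.89 on day 16. That of C1QC over C1QB was 2.32, 2.92 and 3.18 on day 9, 1.57, 1.52 and 1.58 on day 12, and 1.42, 1.32 and 0.87 on day 16. Both ratios were lower in every day 12 sample than in every day 9 sample. With 3 samples against 3 a 2-sided exact permutation test cannot go below 0.1, and p was 0.1 for both, so no change of a ratio was shown. For C1QB over C1QA the same exact permutation test gave p = 0.6. The day 9 ratios rest on C1QA and C1QB values of 10 to 56. The GC percent was 56.78 for C1QA, 51.13 for C1QB and 54.68 for C1QC, so their values may not lie on 1 scale.

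Other genes of the classical pathway did not follow the C1q genes as a group. Of the 10 listed, 9 were tested, and the CD43+ cells had 2 of these higher and 2 lower on both day 12 and day 16. Of all genes, 11.8% and 12.2% were higher on these days, and 14.4% and 13.6% lower. C1R and C1S, which encode the proteases that associate with C1q, were the lower genes. C1R stood at 1170, 1027 and 1082 among day 16 CD43- replicates and at 80, 64 and 60 among CD43+ replicates (-4.00, SE 0.40, adjusted p = 1.16e-09). C1S differed by -3.74 (SE 0.42, adjusted p = 1.25e-08). C2, which encodes a component cleaved by the C1 complex, was higher in CD43+ cells, with 1144, 1049 and 1684 against 207, 188 and 185 (6.52-fold, adjusted p = 0.00157). C3, the central complement component, stood at 3410, 1046 and 903 in the CD43+ cells of day 12 and fell to 262, 290 and 308 by day 16 (-2.36, SE 0.49, adjusted p = 0.00035).

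Among 6 genes of C1q-binding proteins, 3 were higher in CD43+ cells on day 12 and 2 on day 16, beside 11.8% and 12.2% of all genes. On either day 0 were called lower, beside 14.4% and 13.6% of all genes. CR1, the complement receptor for opsonised particles, stood at 1566, 1386 and 923 in day 12 CD43+ cells and 6012, 2278 and 10844 on day 16, against 8, 28 and 24 in day 16 CD43- cells (8.15, SE 0.59, adjusted p = 2.22e-12). LAIR1, an inhibitory receptor that binds C1q and collagen, was at 4904, 3520 and 5914 in day 16 CD43+ cells against 74, 274 and 144 (5.02, SE 0.52, adjusted p = 3.06e-09). CD93, once proposed as a C1q receptor and carried by endothelial cells, was lower in CD43+ cells on day 9 by -3.15 (SE 0.43, adjusted p = 4.22e-07).

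CD163 encodes the receptor through which macrophages take up haptoglobin-haemoglobin complexes. It lies on the minus strand at chr12:7470813-7503893 and shares 38 exonic bases with CD163L1 on the same strand, and its values are uncertain to that extent. The window before its RefSeq start (chr12:7503778-7504027, minus strand, GRCh38.p14) is shown because it held letters of both C/EBP and PU.1.
CD163: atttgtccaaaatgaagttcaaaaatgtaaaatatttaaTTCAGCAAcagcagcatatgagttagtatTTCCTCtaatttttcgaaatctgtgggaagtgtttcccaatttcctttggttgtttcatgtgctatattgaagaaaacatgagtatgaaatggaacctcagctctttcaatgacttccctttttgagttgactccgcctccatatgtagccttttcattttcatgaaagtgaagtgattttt
The capitals mark a C/EBP match 211 to 204 bases and a PU.1 core match 182 to 177 bases before the start, both on the strand opposite to the gene. This start lay 116 bases inside the gene as deposited.

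CD163 was at 2 to 8 until day 2 and 14 to 15 on day 4, and rose in CD43+ cells on day 12. On day 6 it stood at 36, 36 and 28 in CD43+ and 16, 16 and 22 in CD43- cells, ranges that did not overlap, with a difference that was not called (0.86, SE 0.72, adjusted p = 0.338). Its day 9 values were 51, 54 and 80 in CD43+ cells against 16, 22 and 12 in CD43- cells. The day 9 populations did not overlap, but the log2 difference of 1.84 (SE 0.72, adjusted p = 0.0277) was under the 4-fold limit. In CD43+ cells CD163 reached 17368, 4720 and 2706 on day 12 (6.62, SE 0.72, adjusted p = 1.88e-08) and 17368, 15868 and 20424 by day 16. Replicate 1 of day 12 was as high as the day 16 samples, and the day 16 change of 1.55 was not called (95% interval 0.07 to 3.04, adjusted p = 0.0845). In CD43- cells the values were 32, 936 and 838 on day 12 and 19, 26 and 19 on day 16. The day 16 difference between CD43+ and CD43- cells was 9.65 (SE 0.72), an 805-fold change, with an adjusted p of 5.01e-12.

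Of 8 genes of the haemoglobin and haem route, 1 was higher in CD43+ cells on day 12 and 3 on day 16, beside 11.8% and 12.2% of all genes, and 0 were called lower. The day 12 count is near the background. HP, the gene of haptoglobin, was at 8, 8 and 48 in the CD43- replicates of day 12 and 3400, 3035 and 3722 in the CD43+ replicates (7.74, SE 0.89, adjusted p = 1.83e-08). HMOX1, which encodes the inducible haem oxygenase, stood at 394, 504 and 495 in day 16 CD43- cells and 4082, 3688 and 4082 in CD43+ cells (3.09, SE 0.30, adjusted p = 8.24e-10). On day 12 HMOX1 was at 460, 1206 and 2220 in CD43- cells and 4332, 3460 and 3688 in CD43+ cells and was not called. FTH1, the ferritin heavy chain gene, was higher on day 16 by 2.48 (SE 0.19, adjusted p = 7.16e-12).

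MRC1 encodes the macrophage mannose receptor, a lectin that clears glycoproteins and is also carried by sinusoidal and lymphatic endothelium. It lies on the plus strand at chr10:17809344-17911170. MRC1 was the only one of the 10 genes with its third-highest mean level in day 6 CD43- cells, after the day 12 and day 16 CD43+ cells. Its values there were 3426, 2088 and 503, against 509, 497 and 560 in day 6 CD43+ cells and 95, 102 and 113 in unsorted day 4 cells. The day 6 populations overlapped, and MRC1 was higher than on day 4 in both, by 3.88 (SE 0.71, adjusted p = 7.84e-05) in CD43- cells and by 2.33 (SE 0.71, adjusted p = 0.00755) in CD43+ cells. In CD43- cells, 2 of the 10 genes were higher than on day 4 (MRC1 and MSR1, beside 4.94% of all genes), and in CD43+ cells also 2 (MRC1 and CD36, beside 6.80%).

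On day 9 MRC1 was the only gene of the 10 that was called lower in CD43+ cells, with 128, 256 and 103 against 1986, 557 and 1027 in CD43- cells. The populations did not overlap, and the log2 fold change was -2.79 (SE 0.71, adjusted p = 0.00119). The direction then turned. On day 12 the CD43+ values were 17373, 3576 and 2278 and the CD43- values 138, 1105 and 1065 (3.25, SE 0.71, adjusted p = 0.000227), and on day 16 they were 5644, 5045 and 6256 against 466, 658 and 682 (3.24, SE 0.71, adjusted p = 0.000242). Between days 9 and 12 the CD43 difference shifted by 6.04 (SE 1.0, adjusted p = 5.24e-05). MRC1 remained well above 0 in CD43- cells on day 16, where CD14 and the C1q genes stood between 2 and 24.

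In the day 6 CD43- cells MRC1, CDH5 and STAB1 had the same order of replicates, and STAB1 was chosen after its values were seen. In the day 6 CD43- replicates CDH5, the gene of VE-cadherin, was at 25876, 10844 and 5254, and STAB1, a scavenger receptor gene of endothelium and macrophages, at 5777, 3605 and 1330. All 3 genes were highest in replicate 1 and lowest in replicate 3. The summed value of the 8 endothelial markers was 104292, 78900 and 32757 in these replicates, with 0 of the 8 listed at 0. Among these 8, KDR did not hold that order in full, since its median and its highest value were both 48030. On day 16, when MRC1 was higher in CD43+ cells, 6 of the 8 endothelial markers were called lower there, and their median log2 fold change was -3.95. On day 12 the order differed, since MRC1 was lowest in CD43- replicate 1 (138) and CDH5 stood at 4850, 4480 and 4380. The part of endothelial cells in the MRC1 levels was not tested.

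**Figure D2:**
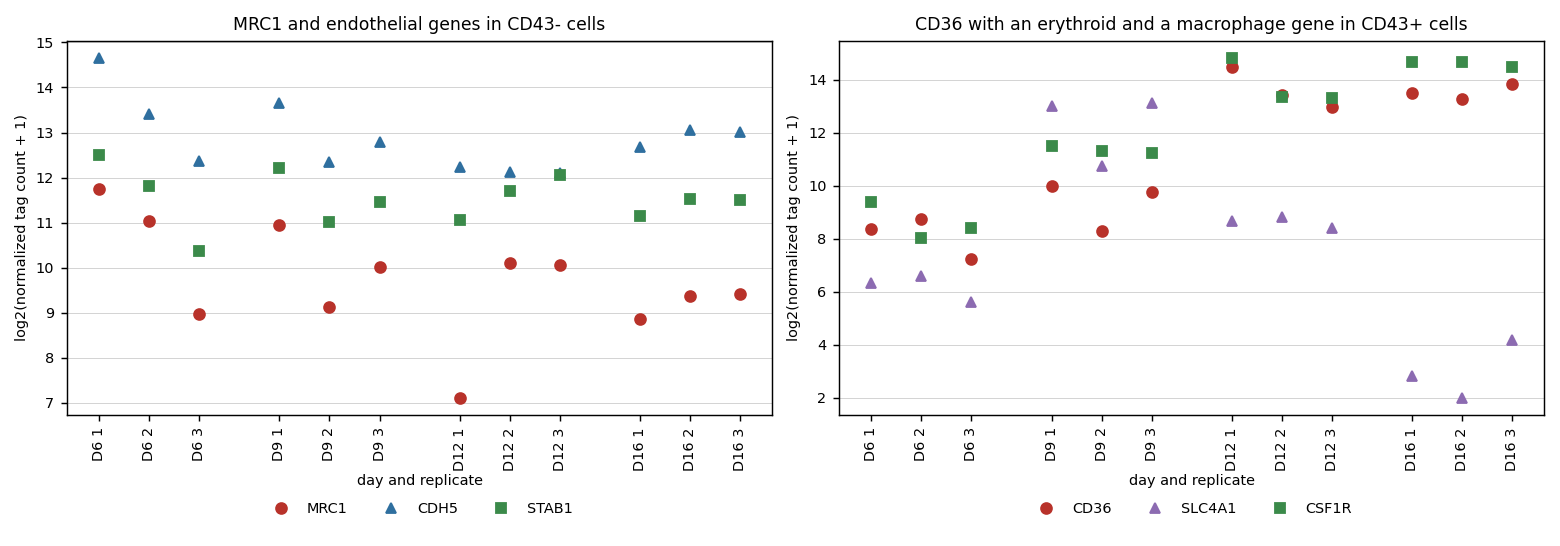
Left, MRC1, CDH5 and STAB1 in the CD43- replicates of days 6 to 16. Right, CD36, the erythroid gene SLC4A1 and the macrophage gene CSF1R in the CD43+ replicates, all as log2(normalised tag count + 1). On day 6 MRC1 is at 3426, 2088 and 503 in CD43- replicates whose CDH5 is at 25876, 10844 and 5254, and CD36 is at 326, 428 and 150 in day 6 CD43+ cells before its higher values of days 12 and 16.

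CD14 encodes the co-receptor that passes lipopolysaccharide to TLR4 and is a marker of monocytes and macrophages. It lies on the minus strand at chr5:140631728-140633701. The 250 bases before its RefSeq start (chr5:140633176-140633425, minus strand, GRCh38.p14) and the matching window of CD68 (chr17:7579388-7579637, plus strand) are shown because these windows held the AP-1 letters beside the PU.1 core.
CD14: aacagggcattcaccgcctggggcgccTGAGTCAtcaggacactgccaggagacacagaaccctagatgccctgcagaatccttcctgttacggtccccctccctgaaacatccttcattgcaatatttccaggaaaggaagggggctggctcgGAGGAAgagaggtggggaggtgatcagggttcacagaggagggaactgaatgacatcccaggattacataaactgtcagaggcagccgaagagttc
CD68: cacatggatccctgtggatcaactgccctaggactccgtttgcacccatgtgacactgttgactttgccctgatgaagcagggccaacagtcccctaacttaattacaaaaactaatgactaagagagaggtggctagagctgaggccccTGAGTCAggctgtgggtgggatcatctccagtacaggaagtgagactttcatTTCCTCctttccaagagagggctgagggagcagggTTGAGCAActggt
The RefSeq start of CD14 lay 526 bases inside the gene as deposited, so the whole CD14 window lay within the gene. That of CD68 lay 171 bases inside its gene. In CD14 the capitals mark an AP-1 match 223 to 217 bases and a PU.1 core match 96 to 91 bases before the start. In CD68 they mark an AP-1 match at 100 to 94 bases, a PU.1 core match on the opposite strand at 48 to 43 bases and a C/EBP match on the opposite strand at 13 to 6 bases. The RUNX letters were in none of the windows searched for C1QA, C1QB, CD163, CD14, CD68 and MARCO, and the MARCO window held none of the motifs.

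In CD43+ cells CD14 was among the last of the 10 genes to appear. On day 6 it ranged from 12 to 34 in CD43- cells and from 6 to 10 in CD43+ cells. These ranges did not overlap, but the difference was not called. On day 9 it ranged from 1 to 17 in CD43+ cells and from 2 to 12 in CD43- cells, so these populations overlapped. On day 12 it rose in CD43+ cells to 3183, 1304 and 754, by 7.74 on the log2 scale (SE 0.92, adjusted p = 8.04e-08), a value that depends on the 1 added to the low day 9 values. On day 16 the values were 896, 906 and 1742, which overlapped those of day 12 (-0.38, 95% interval -2.27 to 1.51). In CD43- cells CD14 stood at 13, 249 and 337 on day 12 and 5, 2 and 6 on day 16. The CD43+ cells were higher by 3.79 (SE 0.92, adjusted p = 0.000705) on day 12 and by 7.81 (SE 0.92, adjusted p = 2.83e-08) on day 16.

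Genes of the lipopolysaccharide receptor complex were also higher in the late CD43+ cells. Of 8 listed partners of CD14, 4 were higher than in CD43- cells on day 12 and 5 on day 16, beside 11.8% and 12.2% of all genes. On these days 0 were called lower, beside 14.4% and 13.6% of all genes. TLR4, the signalling receptor, stood at 3380, 1478 and 1686 on day 12 in CD43+ cells, against 22, 63 and 256 (4.81, SE 0.62, adjusted p = 1.22e-07). LY96, the gene of the MD-2 subunit, was at 230, 104 and 88 against 0, 0 and 10 (5.86, SE 0.70, adjusted p = 3.64e-08). TLR2, a receptor for bacterial lipoproteins, reached 6072, 4790 and 7780 in day 16 CD43+ cells against 18, 38 and 20 (7.93, SE 0.58, adjusted p = 3.32e-12). Unlike CD14, TLR4 was already at 251, 436 and 331 in unsorted day 4 cells.

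CD68 encodes a heavily glycosylated protein of lysosomes and endosomes, rich in macrophages and present at lower levels in many cells. It lies on the plus strand at chr17:7579467-7582113. Its values are uncertain, since CD68 shares 1789 exonic bases with AC016876.2 on the same strand and 150 with AC016876.1 on the opposite strand, and whether the counting used strand is not stated. In CD43+ cells it stood at 37, 50 and 122 on day 6, 396, 520 and 353 on day 9, 9493, 6068 and 5482 on day 12 and 9240, 8272 and 9493 on day 16. It rose from day 6 to day 9 by 2.75 (SE 0.58, adjusted p = 0.000533) and from day 9 to day 12 by 4.03 (SE 0.58, adjusted p = 1.44e-06).

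CD68 kept a higher level in CD43- cells on day 16 than most of the other genes. It was at 38, 92 and 20 in day 9 CD43- cells, 114, 922 and 1158 on day 12 and 902, 1153 and 939 on day 16. The 3 day 16 replicates lay within the range of day 12. The CD43+ cells were higher by 3.30 (SE 0.58, adjusted p = 1.53e-05) on day 9, 3.78 (SE 0.58, adjusted p = 1.88e-06) on day 12 and 3.18 (SE 0.58, adjusted p = 2.32e-05) on day 16. The day 16 difference was the smallest of the 10 genes, followed by that of MRC1.

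MARCO and MSR1 encode trimeric class A scavenger receptors, which bind bacteria and modified lipoproteins. MARCO lies on the plus strand at chr2:118942166-118994660 and MSR1 on the minus strand at chr8:16107878-16567490. MARCO was at most 4 and MSR1 at most 11 in every sample up to day 9. MARCO was between 0 and 2 in all sorted samples of days 6 and 9. In CD43+ cells it stood at 65, 147 and 148 on day 12 and 280, 254 and 580 on day 16, and every day 16 value was higher than every day 12 value (1.61, SE 0.42, adjusted p = 0.00296, under the 4-fold limit). MSR1 stood at 182, 35 and 24 on day 12 and 322, 274 and 519 on day 16. It was the only one of the 10 genes called from day 12 to day 16, with a log2 fold change of 2.71 (SE 0.67, adjusted p = 0.00196). That call was lost when only these populations were fitted (adjusted p = 0.0546) and with 0.1 added in place of 1 (adjusted p = 0.0712).

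MARCO differed from the other genes in the day 12 replicates. It was listed at 0 in all 3 day 12 CD43- samples, including replicates 2 and 3, in which the other 9 genes stood between 8 and 1400. In the day 12 CD43+ cells MARCO was lowest in replicate 1, the replicate in which the other 9 genes were highest. In day 16 CD43- cells it stood at 2, 4 and 2, and the day 16 difference was 6.61 (SE 0.42, adjusted p = 1.74e-13). MSR1 had a small early signal in CD43- cells, with 1, 6 and 11 on day 6 against 0 in CD43+ cells. It was called lower in CD43+ cells (adjusted p = 0.00328), but was not called without replicate 3 of the CD43- cells, where the fitted difference was -1.90. With 10 added in place of 1 the adjusted p was 0.158.

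CD36 encodes a class B scavenger receptor that takes up fatty acids and oxidised lipoproteins and binds thrombospondin. It is carried by macrophages and also by platelets, erythroid precursors and microvascular endothelium. It lies on the plus strand at chr7:80369575-80679277. CD36 was the first of the 10 genes to be called higher in CD43+ than in CD43- cells, with 326, 428 and 150 on day 6 against 3, 2 and 6. The populations did not overlap, and the log2 fold change was 5.98 (SE 0.80, adjusted p = 6.5e-07). On the same day CD163 was at 36, 36 and 28, and C1QA, C1QB, MARCO and MSR1 were listed at 0 in CD43+ cells. On day 9 CD36 stood at 1020, 309 and 860 in CD43+ cells against 6, 6 and 6 (6.53, SE 0.80, adjusted p = 6.55e-08).

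Erythroid genes were high in the CD43+ cells of days 6 and 9. The summed value of 10 erythroid markers in CD43+ cells was 115601 to 126296 on day 6, 126486 to 214855 on day 9 and 6249 to 15498 on day 12, with 0 of the 10 listed at 0 in these samples. SLC4A1, the band 3 gene of red cells, ranged from 48 to 96 in day 6 CD43+ cells. In day 9 CD43+ cells it stood at 8272, 1686 and 8797. CSF1R, the receptor of macrophage colony-stimulating factor, was at 2865, 2510 and 2399 in the same day 9 samples. CSF1R was chosen after its values were seen. Whether CD36 followed either gene across so few replicates was not tested. The summed value of 8 megakaryocyte markers was 10229 to 15210 on day 6 and 40598 to 45647 on day 9 in CD43+ cells, with 0 of the 8 listed at 0. The parts of erythroid cells, megakaryocytes and macrophages in the early CD36 level were not tested.

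CD36 rose again in CD43+ cells on day 12, to 22842, 10840 and 8086, while SLC4A1 stood at 405, 452 and 338. The log2 fold change of CD36 from day 9 to day 12 was 4.28 (SE 0.80, adjusted p = 5.54e-05). On day 16 CD36 stood at 11508, 9900 and 14685, within the range of day 12 (-0.09, 95% interval -1.72 to 1.55). In CD43- cells it was at 30, 768 and 1400 on day 12 and 20, 25 and 24 on day 16. The day 16 difference between CD43+ and CD43- cells was 8.96 (SE 0.80, adjusted p = 1.56e-10). Of 8 listed partners of CD36, 1 was called higher on day 16 and 0 lower, a share near the 12.2% of all genes. The gene was PPARG, a lipid-sensing nuclear receptor gene, with 528, 344 and 498 in CD43+ and 82, 87 and 91 in CD43- cells (2.36, SE 0.33, adjusted p = 5.54e-07).

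**Figure D3:**
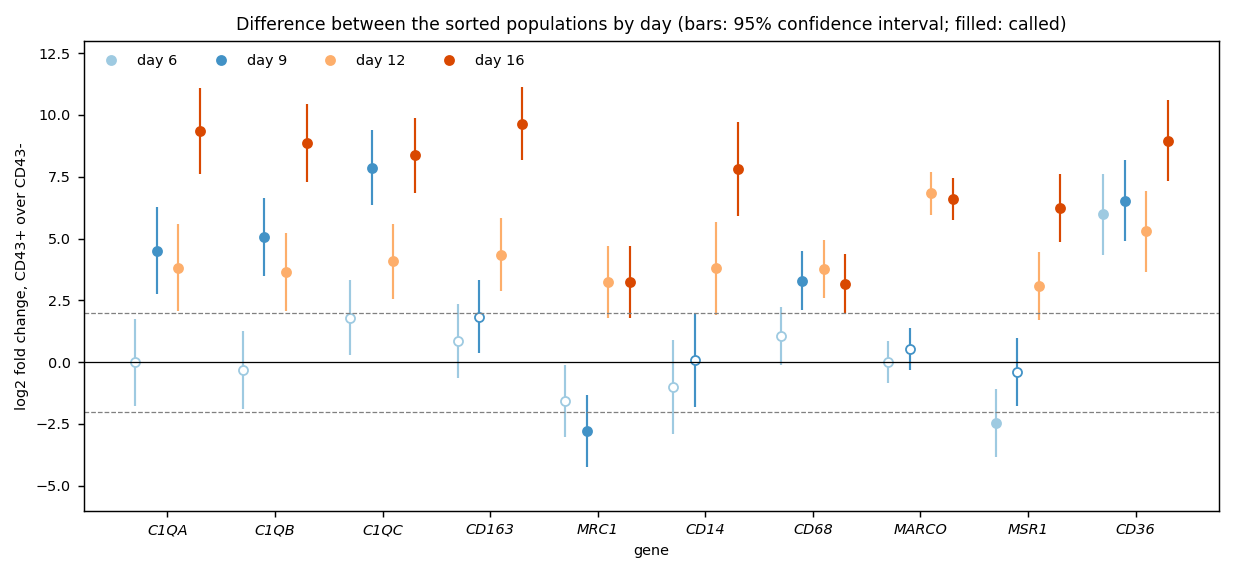
Log2 fold change of each gene in CD43+ over CD43- cells on days 6, 9, 12 and 16, with 95% confidence intervals from limma; filled points are called and dashed lines mark the 4-fold limit. CD36 is called on all 4 days, MRC1 turns from -2.79 on day 9 to 3.25 on day 12, and all 10 genes are called on days 12 and 16. Values against samples listed at 0 depend on the 1 added before the log and are no fold.

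The day 12 differences were the least certain, because the CD43- replicates differed so widely. As a percentage of the mean in day 12 CD43+ cells, the 10 genes had a median of 0.567% in replicate 1 of the CD43- cells, 12.2% in replicate 2 and 15.1% in replicate 3. In replicate 2 the range was 0% for MARCO and 5.52% for CD36 up to 18.2% for C1QA, and in replicate 3 it was 0% for MARCO and 10.1% for CD36 up to 23.9% for C1QB. On day 16 the medians were 0.365%, 0.232% and 0.407%. All 3 day 16 medians were below that of replicate 1 on day 12.

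Most other macrophage genes were also higher in replicates 2 and 3 of the day 12 CD43- cells, and the medians of other blood cell markers were lower. The 30 other macrophage and monocyte markers had medians of 0.233%, 7.94% and 10.3% in replicates 1, 2 and 3, with 6, 2 and 1 of them listed at 0. Their summed values of 34144, 40121 and 55521 were mostly VCAN, a matrix proteoglycan gene, which stood at 123%, 110% and 158%, and without it the sums were 5118, 14251 and 18335. MERTK, an engulfment receptor gene, stood at 139%, 126% and 137%, and CCR2 and FCN1 were at 0% to 0.954% in all 3. VCAN, MERTK, CCR2 and FCN1 were chosen after their values were seen. The neutrophil markers had medians of 0%, 0.0662% and 0.603% and summed values of 82, 466 and 6342, with 6, 4 and 3 of 10 listed at 0. The megakaryocyte markers had medians of 0.198%, 0.531% and 2.90%. SPN was at 1.99%, 1.96% and 3.84%, and PTPRC at 0.0417%, 2.06% and 3.87%. The part of macrophages or of cells carried over in the sort in these values was not tested. The mesenchymal markers, which are high in CD43- cells, summed to 307342, 309789 and 310876 in the same replicates.

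The order of the lists was another on day 16. While the 10 genes had medians of 0.232% to 0.407% in the CD43- replicates, the megakaryocyte markers had medians of 6.94%, 20.8% and 11.4%, the neutrophil markers 0.885%, 5.71% and 2.42%, and the other macrophage markers 0.678%, 1.73% and 1.18%. MPO, the neutrophil myeloperoxidase gene, also chosen after its values were seen, stood at 5.13%, 14.2% and 9.89%, and SPN at 3.15%, 12.3% and 4.57%. MRC1 and CD68 were the exceptions among the 10 genes, at 8.25% to 12.8%, while the other 8 were at most at 2.15%. The summed macrophage markers without VCAN were 14634, 16587 and 16656 in these replicates. Single markers differed widely, so this sum does not stand for the list as a whole. SELENOP stood at 144%, 152% and 156% and LYVE1 at 227%, 208% and 264%, whereas CSF1R stood at 0.479%, 1.17% and 0.712%. SELENOP, LYVE1 and CSF1R were chosen after their values were seen.

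**Figure D4:**
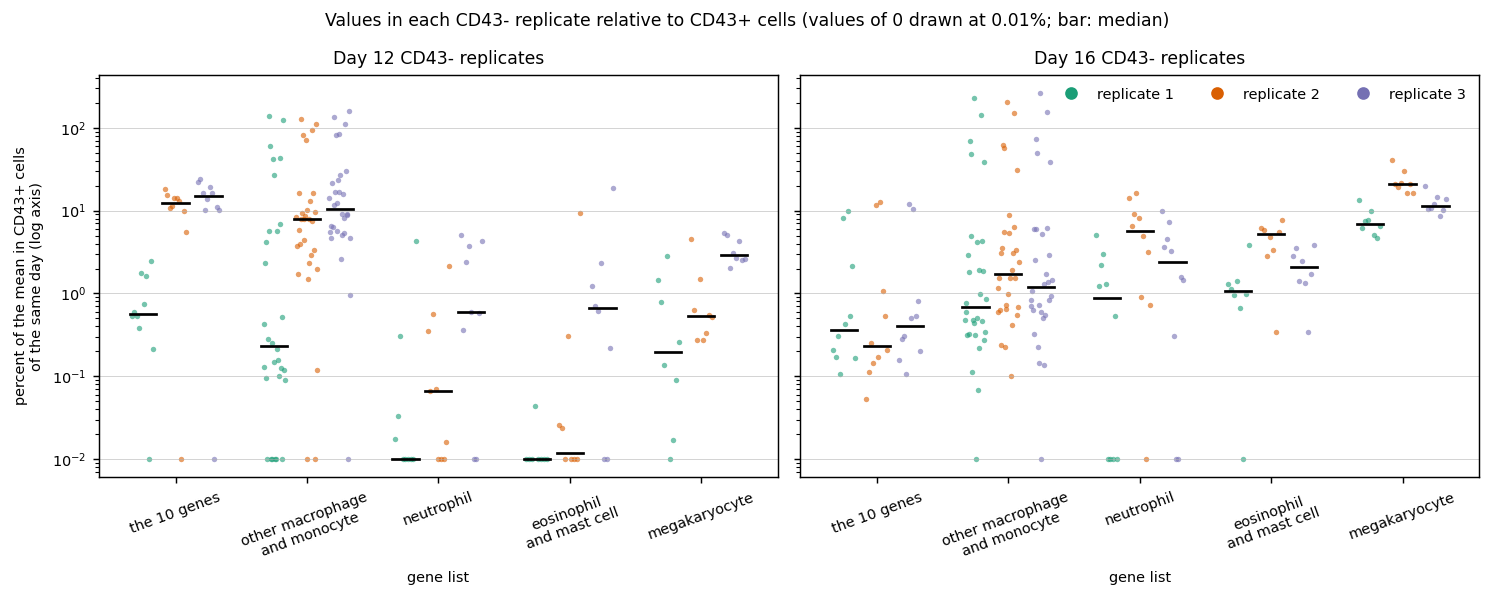
Value of each gene in the CD43- replicates of day 12 (left) and day 16 (right) as a percentage of its mean in the CD43+ cells of the same day, on a log axis with values of 0 drawn at the bottom. Points are genes and bars are medians, and genes with a low CD43+ mean are left out. On day 12 the medians of the 10 genes are 0.567%, 12.2% and 15.1% in replicates 1 to 3, and on day 16 they are 0.365%, 0.232% and 0.407%.

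All 10 genes were called higher in CD43+ than in CD43- cells on day 12 with replicate 1 as the only CD43- sample, by 4.19 for MSR1 to 8.67 for CD36. Without replicate 1 of the CD43+ cells all 10 were called as well, by 2.21 for MSR1 to 7.21 for MARCO. When only the day 12 populations were fitted, 7 were called, and C1QA, C1QB and CD14 were not (adjusted p = 0.0707, 0.0797 and 0.05). The day 9 to day 12 rise in CD43- cells was called for C1QA, C1QB, C1QC, CD14, CD163, CD36 and CD68. In replicate 1 CD163, CD14 and CD68 stood at 32, 13 and 114, against highest day 9 CD43- values of 22, 12 and 92. MRC1 stood at 138 in that replicate, below its day 9 CD43- range of 557 to 1986. The fall from day 12 to day 16 was called for C1QA, C1QB, C1QC, CD14, CD163 and CD36, and for none of them with replicate 1 alone.

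The change of the CD43 difference between successive days was tested as an interaction. From day 6 to day 9 the difference grew for the 3 C1q genes (3.21% of all genes were called higher). From day 9 to day 12 it grew for MRC1, CD14, MARCO and MSR1 (4.61% of all genes), and shrank for C1QC (4.39% of all genes were called lower). From day 12 to day 16 it grew for 7 genes (2.86% of all genes), and for MRC1, CD68 and MARCO the fitted changes were -0.01, -0.60 and -0.22. With replicate 1 as the only day 12 CD43- sample, this last change was smaller for all 7, with 2.13 for CD163 and 0.29 for CD36. CD68 went the other way, at 114 in that replicate and 902 to 1153 in day 16 CD43- cells.

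Ordered by mean level, the day 12 and day 16 CD43+ cells held the first 2 places for all 10 genes. The day 12 CD43+ cells came first for MRC1, CD14 and CD36, and the day 16 CD43+ cells for the other 7. These first places of day 12 rest on replicate 1, without which the day 12 means were 2927 for MRC1, 1029 for CD14 and 9463 for CD36, all below the day 16 means of 5648, 1181 and 12031. The ranges of these 2 populations overlapped for 8 genes, and did not for MARCO and MSR1. The third place was held by day 12 CD43- cells for C1QA and most of the others, by day 16 CD43- cells for CD68 and MARCO and by day 6 CD43- cells for MRC1. The CD43+ and CD43- ranges of the same day overlapped on day 6 for C1QA, C1QB, MRC1, CD68 and MARCO and on day 9 for CD14, MARCO and MSR1. On days 12 and 16 they overlapped for none of the 10.

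Other scavenger receptor genes were divided between the sorted populations. Of 19 listed, the CD43+ cells had 5 higher and 8 lower on day 12 and 4 higher and 7 lower on day 16. Of all genes, 11.8% were higher and 14.4% lower on day 12, and 12.2% were higher and 13.6% lower on day 16. Their median log2 fold change on day 16 was -0.53, against 0.14 over all genes. CLEC7A, the beta-glucan receptor gene of myeloid cells, stood at 2866, 2679 and 4545 in day 16 CD43+ cells against 6, 8 and 8 (8.63, SE 0.71, adjusted p = 2.98e-11). CD163L1, the close relative of CD163, stood at 816, 558 and 1241 against 12, 10 and 12 (6.07, SE 0.71, adjusted p = 2.55e-08). In the other direction LRP2, the gene of megalin, was at 8, 18 and 12 in CD43+ cells against 1038, 1428 and 1252 (-6.56, SE 0.51, adjusted p = 9.83e-12), and MEGF10, an engulfment receptor gene, differed by -5.90 (SE 0.34, adjusted p = 2.47e-14).

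Across the 34 samples the levels of the 10 genes were most alike for C1QA and C1QB (Pearson r = 0.989) and least alike for MRC1 and MARCO (r = 0.461). All points share the same libraries and normalisation, and many are replicates or zeros, so r is a description only. The nearest other genes were MS4A7 for C1QA (r = 0.983) and C1QB (r = 0.987), SIGLEC14 for C1QC (r = 0.980), MKNK1 for CD163 (r = 0.974), RIN2 for MRC1 (r = 0.964) and SLC37A2 for CD14 (r = 0.924). They were IL10RB for CD68 (r = 0.971), ADGRE1 for MARCO (r = 0.969), LILRB5 for MSR1 (r = 0.945) and LILRB2 for CD36 (r = 0.967). MS4A7, a membrane protein gene of macrophages, was at 3538, 1206 and 937 on day 12 in CD43+ cells against 4, 149 and 172, and at 2660, 2862 and 3298 against 2, 3 and 4 on day 16.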

How the data were processed

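The 34 samples of H1 cells were measured by RNA sequencing. By the study's methods, the authors used bowtie2 and RSEM with Ensembl genes, then removed GC effects from the tag counts with EDASeq, both inside a sample and across samples. The submitters' processing notes also list bcl2fastq, STAR 2.7 and hg38. The deposited values are whole numbers with the same total in every sample, and were treated as a normalised score. A GC percent per gene stands beside them in the deposited table, where the authors' source for it is not given, and it was not tested. Depth is unknown, so no counting error is given.

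The scale log2(value + 1) was tested by limma 3.58.1 under R 4.3.3, using lmFit and then eBayes with a trend, without a replicate block, in 33 samples, leaving out the undifferentiated sample, which has no replicate. A gene was tested if 3 or more samples had a value of 10 or more (19788 of 20255; 467 were not), and all 10 genes passed. Calls needed a Benjamini-Hochberg adjusted p-value below 0.05, over all genes tested, and a fold change above 4. The procedure was tested on simulated data. The contrasts set CD43+ against CD43- cells of each day, each day against the one before within a kind of cell, day 6 against day 4, and changes of the CD43 difference. Tests of chain ratios were exact permutation tests.

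The 10 genes and the gene lists, which were written from general knowledge, were chosen with earlier results of these data known. Genes named from the lists were, by rule, any of the complement, C1q-binding, CD14, CD163 and CD36 lists, and of each other list the 4 with the largest change among those called in CD43+ against CD43- cells on day 16 or in CD43+ cells from day 12 to day 16. STAB1, CSF1R and the genes of the closing section were chosen after their values were seen. For each of the 10 genes the nearest by Pearson correlation is named.

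Positions are GRCh38 as deposited and were the same in GENCODE v29 for all 10 genes. Replicate numbers were checked as pairs by correlating how far a CD43+ and a CD43- sample with one number lay from their population means: 0.198, 0.109 and 0.199 on day 6, 0.0165 to 0.0782 on day 9, 0.0389 to 0.108 on day 12 and -0.0152 to 0.0418 on day 16. Only the day 6 numbers were therefore taken as pairing samples. Alternatives were pseudocounts of 0.1 and 10, no filter, a value of at least 100, median-of-ratios scaling, a fold change above 2, robust variances, a fit restricted to the populations compared, a replicate block and leaving out each replicate. A fit with replicate 1 as the only day 12 CD43- sample was added after seeing the data. It keeps the CD43- replicate with the lowest summed value of the 10 genes, so it is no independent check.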

Additional observations from a re-analysis of the deposited data

Results flagged for a closer look

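The change of the CD43 difference between successive days was called for 15 pairs of gene and interval, each by a test of the interaction itself, and each is given here because 2 days differed in the same contrast. From day 6 to day 9 it was 4.51 for C1QA, 5.39 for C1QB and 6.07 for C1QC on the log2 scale. These depend on the 1 added before the log, since C1QA and C1QB were listed at 0 or 1 in the day 6 samples and all 3 genes at 0 in the day 9 CD43- samples. With 10 added, C1QA and C1QB were not called (adjusted p = 0.202 and 0.101).

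From day 9 to day 12 the change was -3.79 for C1QC, 6.04 for MRC1, 3.71 for CD14, 6.30 for MARCO and 3.47 for MSR1. The change of C1QC depends on the 1 added to the day 9 CD43- values of 0, and was -0.63 (adjusted p = 0.648) with 10 added. It was -0.72 (adjusted p = 0.537) with replicate 1 as the only day 12 CD43- sample. The change of CD14 was not called when any of 5 samples was left out, and was lowest, at 2.25 (adjusted p = 0.131), without replicate 1 of the day 12 CD43- cells. The change of MSR1 was not called with 0.1 added (adjusted p = 0.0899) or with only the populations compared (adjusted p = 0.0532), and those of CD14 and C1QC were not called with only the populations compared (adjusted p = 0.161 and 0.103). With replicate 1 as the only day 12 CD43- sample MRC1, CD14, MARCO and MSR1 were called, at 8.02, 6.63, 6.30 and 4.58.

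From day 12 to day 16 the change was 5.53 for C1QA, 5.20 for C1QB, 4.28 for C1QC, 5.30 for CD163, 4.02 for CD14, 3.15 for MSR1 and 3.67 for CD36. With replicate 1 as the only day 12 CD43- sample these were 2.11, 1.93, 1.22, 2.13, 1.10, 2.04 and 0.29, and of them CD163 alone was called. The values of day 12 CD43- replicates 2 and 3 move with this result, and what set them apart was not tested. The day and the added CD45 gate of the day 16 sort cannot be told apart in these changes.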

How the results depend on the processing

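Of 1528 values of single genes under an alternative, 1436 kept their direction and their side of the thresholds, 74 lost the call, 12 gained it and 6 changed sign or went to 0. The 6 were near 0 and not called. They were the day 9 CD43 difference of CD14 (0.08), which was -0.0083 with a pseudocount of 0.1 and -0.083 with median-of-ratios scaling, and -0.61 to 0.97 on leaving out 1 sample, with -0.47, -0.11 and -0.61 without replicate 1 of the CD43- cells or replicates 2 and 3 of the CD43+ cells, and that of C1QB on day 6, -0.50 to 0 on leaving out 1 sample, with 0 without replicate 3 of the CD43- cells. The counts of called genes that moved by over 1.5 times were as follows. With a pseudocount of 0.1 they were 0 for CD43+ cells from day 12 to day 16, 1 from day 0 to day 2, and 5 for each day 6 population against day 4. With a pseudocount of 10 they were 1 for the day 6 CD43 difference and 1 for day 6 CD43- cells against day 4. With a fold change above 2, CD43+ cells from day 12 to day 16 gave 2. With only the populations compared, where fewer samples set the spread, they were 0 for CD43+ cells from day 12 to day 16, 3 and 1 for CD43- cells from day 9 to 12 and from day 12 to 16, and, for changes of the CD43 difference, 2 between days 9 and 12 and 0 between days 12 and 16. With replicate 1 as the only day 12 CD43- sample they were 1 for CD43- cells from day 12 to day 16 (higher, and none of the 6 that had been lower), and 8 and 2 for the last 2 changes of the CD43 difference. Leaving out 1 sample gave 0 to 1 from day 0 to day 2 (1 without day 0 replicate 2), 1 to 2 for day 6 CD43- cells against day 4 (1 without replicate 3), 1 to 2 for CD43+ cells from day 12 to day 16 (2 without replicate 1 of day 12) and 4 to 7 for the last change of the CD43 difference (4 without replicate 3 of the day 12 CD43- or CD43+ cells). Median-of-ratios scaling moved the median of all genes of CD43 differences from 0.14 to 0.00 for day 6 and from 0.24 to 0.04 for day 9, and that of the day 9 to day 12 change in CD43+ cells from -0.15 to 0.00.

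With a replicate block over all samples, 2 genes were called on day 6, 6 on day 9 and 10 on days 12 and 16, as without it, and no other count moved by over 1.5 times. With the pairing in a fit of the day 6 populations only, CD36 (adjusted p = 0.0113) and MSR1 (adjusted p = 0.0474) were called on day 6, again 2 genes. The replicate spread is the only error here, and levels of 0 to 10 cannot be ranked at this unknown depth.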

Other observations

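Of the 30 other macrophage and monocyte markers, the CD43+ cells had 9 higher on day 6. On day 9 there were 19, and 24 and 25 were higher on days 12 and 16. The shares of all genes were 4.69%, 8.65%, 11.8% and 12.2%. On days 6 and 9, 3 of the 30 were lower in CD43+ cells, beside 7.85% and 12.8% of all genes, and 0 were lower on days 12 and 16. VCAN and SELENOP were lower on both days, and VCAN differed by -5.56 and -7.05 on the log2 scale. TYROBP and FCER1G, which encode signalling adaptors of myeloid receptors, stood at 208, 116 and 109 and at 530, 426 and 385 in day 6 CD43+ cells, a stage at which C1QA, C1QB, MARCO and MSR1 were listed at 0. TREM2, a lipid-sensing receptor gene that signals through TYROBP, was at 106, 32 and 40 in the same samples and at 0 in all day 6 CD43- samples.

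From day 12 to day 16, 2 of the 30 were called higher in CD43+ cells, beside 3.79% of all genes, a share not far from it. They were TIMD4, a receptor for phosphatidylserine on dying cells, and FOLR2, a folate receptor of tissue macrophages. TIMD4 stood at 307, 142 and 75 on day 12 and 866, 982 and 628 on day 16 (adjusted p = 0.00859), and FOLR2 at 826, 190 and 158 and then 1254, 1087 and 1797 (adjusted p = 0.0449). CCR2, a chemokine receptor of monocytes, was listed at 0 in all day 12 CD43- samples, as MARCO was, and stood at 199, 235 and 202 in day 12 CD43+ cells. FCN1, a monocyte lectin gene, stood at 6, 6 and 48 in day 12 CD43- cells and at 7007, 3770 and 4312 in CD43+ cells. LYVE1, a hyaluronan receptor gene of lymphatic endothelium and of some macrophages, was at 2324, 2124 and 2702 in day 16 CD43- cells and 592, 528 and 1949 in CD43+ cells, and its difference was not called (-1.48, SE 0.73, adjusted p = 0.0741).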
